A study of Mus musculus with 12 samples.

Results

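Wild-type (WT) livers from mice given acetaminophen (APAP) were compared with WT livers from mice given vehicle, 3 livers against 3, which are 6 of the 12 livers of the series. All 6 were livers of C57BL/6 mice, labelled as wild type at 10 to 12 weeks of age. Per the study's methods, the animals were male littermates of *Gna12* knockout (KO) mice, were fasted overnight and received a single intraperitoneal dose of 300 mg/kg APAP or vehicle, and the liver was taken 6 h later. The other 6 livers carry the label *Gna12* KO (Gα12-/-) with the same pair of treatments, and they serve here only as a second set in which the WT calls were looked up. *Gna12* had 1193 to 4373 counts in the WT livers and 2472 to 4003 counts in the livers labelled KO. The study reports a genomic PCR and a liver qRT-PCR for *Gna12* in its WT and KO mice. Which part of the gene is deleted is not known here, so these counts cannot settle the label. Those livers are therefore named by their label only.

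APAP is a painkiller that is safe at low doses because the liver couples it to glucuronic acid or sulfate. At high doses cytochrome P450 enzymes, CYP2E1 above all, turn it into a reactive quinone imine that uses up glutathione, binds to mitochondrial proteins and causes sustained activation of the kinase JNK in hepatocytes around the central vein. The transcription factors NRF2, which answers to electrophiles, and ATF4, which is translated when the integrated stress response slows protein synthesis, are among the known regulators of the liver's answer to such injury.

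Of 45777 genes in the table, 15693 had enough reads to be tested. With edgeR's quasi-likelihood test and an adjusted p-value under 0.05, 255 genes (1.62% of those tested) were higher after APAP and 67 genes (0.427%) were lower. The median log2 fold change of the higher genes was 2.48, and 159 of them changed at least 4-fold, whereas the median of the lower genes was -1.39 and 10 of 67 changed at least 4-fold. The higher genes took 0.423% to 0.512% of all normalized reads in the vehicle livers and 2.43% to 2.73% in the APAP livers. In all 322 called genes the 3 APAP livers lay on one side of the 3 vehicle livers, as they did in 24.9% of all genes tested. Values below are CPM, the share of a library's reads that fell on a gene after TMM scaling of the library sizes, given for replicates 1, 2 and 3 in that order. All of them come from whole liver, in which fewer cells of a type and less RNA per cell cannot be told apart.

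The WT libraries had 51555281 to 69566079 counts, and 2 of them stood apart. WT APAP replicate 1 held 16600 CPM of 9 erythroid genes against 316 to 357 CPM in the other 5 livers, and WT vehicle replicate 2 held 4510 CPM of *Saa1*, an acute phase protein, against 6.43 and 81.9 CPM in the other vehicle livers. Each comparison was therefore repeated without the one, without the other and without both. Both libraries were singled out by their values, so these counts describe how the calls rest on them and are no further test. Without WT APAP replicate 1, 229 genes (1.44% of 15912) were higher and 50 (0.314%) lower. Without WT vehicle replicate 2, 181 genes (1.10% of 16387) were higher and 54 (0.330%) lower. With both left out, 2 livers against 2, 435 genes (2.74% of 15903) were higher and 196 (1.23%) lower.

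Of the 255 higher genes, 188 were also called without WT APAP replicate 1, 134 without WT vehicle replicate 2 and 208 without both, and 119 were called in all 3 of these fits. Of the 67 lower genes, these counts were 27, 28, 48 and 16. All 67 lower genes kept their sign in each of these fits, as did all 255 higher genes without WT vehicle replicate 2 and without both. Without WT APAP replicate 1, 253 higher genes kept it, and *Tmem54* and *Gm36059* were not tested in that fit. The calls of 41 higher and 19 lower genes were met in none of the 3 fits, among them *Slc3a2*, *Asns* and *Pmaip1* of the higher and *Akr1d1*, *Cyp2c38* and *Fmo1* of the lower genes. Leaving out any of 3 other libraries lost more calls, since 39 of the 255 higher genes were called without WT vehicle replicate 1, 40 without WT vehicle replicate 3 and 66 without WT APAP replicate 3. In every fit with 1 library left out, 31 higher genes and 0 lower genes were called. Among the 31 were *Atf3*, *Fosb*, *Ddit3*, *Psat1*, *Srxn1*, *Gclc*, *Sqstm1*, *Dusp4*, *Dusp10*, *Mafk*, *Plk2*, *Nfkbiz*, *Areg* and *Tnfrsf12a*, and further members are named below.

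**Figure D1:**
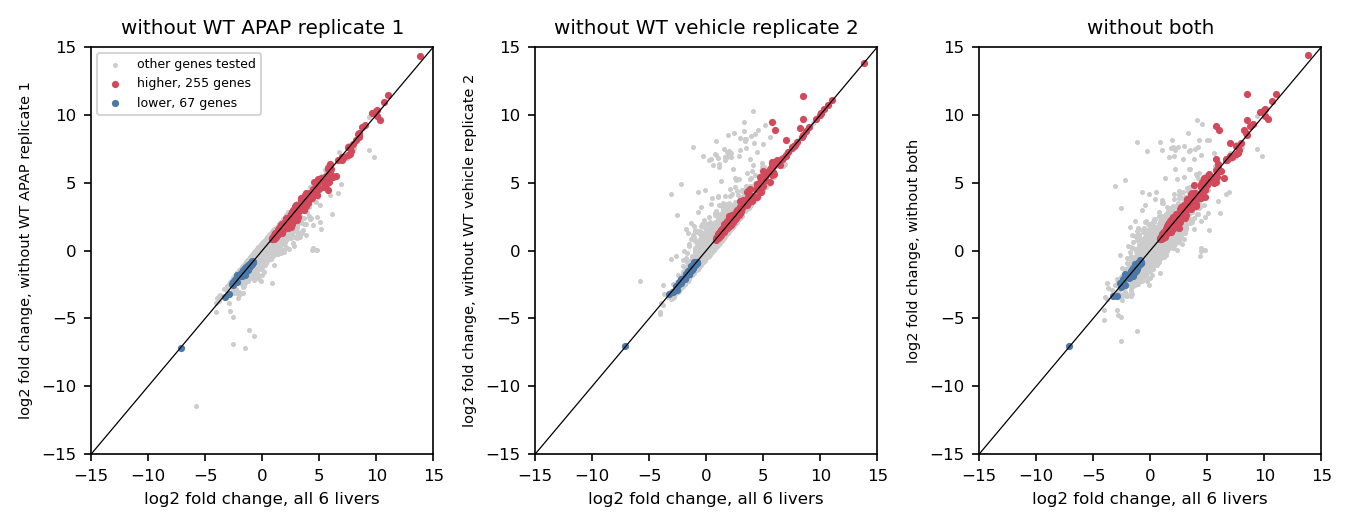
Log2 fold change of each gene tested in all 6 WT livers (x axis) against that without WT APAP replicate 1, without WT vehicle replicate 2 and without both (y axis, from left to right). Red points are the 255 genes higher and blue points the 67 genes lower with all 6 livers; they follow the diagonal in each panel, while grey points, the genes not called, leave it upwards when WT vehicle replicate 2 is left out.

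Of the 54 lists, the immediate early genes held the most higher genes. They mostly encode transcription factors made soon after a stimulus. Of 24 tested, 14 were higher and 0 lower, and the median log2 fold change of the 24 was 3.68, where that of all genes tested was 0.03. The counts called in this and each later list stand beside 1.62% called higher and 0.427% called lower of all genes tested. *Atf3* (gene ID 11910, chr1:191170296-191183333 in GRCm38 by RefSeq), a stress-induced factor of the ATF/CREB family, had 0.621, 3.42 and 0.699 CPM in the vehicle livers and 642, 468 and 573 CPM in the APAP livers. The groups were far apart (8.48 on the log2 scale, standard error 0.82, adjusted p = 0.00659). *Fosb*, a partner of the JUN proteins in the AP-1 complex, went from 0.0888, 0.158 and 0 CPM to 26.9, 10.5 and 35.8 CPM (log2 fold change 8.19, standard error 0.81, adjusted p = 0.00659). *Egr1*, a zinc finger factor, went from 18.6, 30.5 and 5.1 CPM to 1230, 839 and 1170 CPM (log2 fold change 5.90, standard error 0.68, adjusted p = 0.00933). *Klf6*, *Ier2*, *Myc* and the small MAF proteins *Maff* and *Mafk*, which pair with NRF2, rose as well, and *Myc* and *Maff* were chosen after their values were seen. Of the 14 called, 13 were called without WT APAP replicate 1, 11 without WT vehicle replicate 2 and 14 without both.

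With edgeR, further members of the same list were called when WT vehicle replicate 2 was left out but not with all 6 livers. DESeq2 called 18 of the 24 higher and 0 lower with all 6 livers. *Junb* had 20.4 and 29.2 CPM in vehicle replicates 1 and 3 but 166 CPM in replicate 2, inside the range of the APAP livers (360, 118 and 362 CPM). With all 6 livers its log2 fold change was 1.96 (adjusted p = 0.266), and without that library it was 3.49 (adjusted p = 0.0436). *Fosl2* (adjusted p = 0.139 and 0.0264) and *Jund* (adjusted p = 0.0512 and 0.0202) moved in the same way, and these 3 genes were chosen after their values were seen.

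The MAP kinase phosphatases (*Dusp* genes) remove phosphate from ERK, JNK and p38 and are themselves induced by these kinases. Of 14 tested, 5 were higher and 0 lower, and the list's median log2 fold change was 1.88, or 1.22 without WT APAP replicate 1. *Dusp4* went from 1.37, 1.68 and 1.44 CPM to 20.3, 10.6 and 14.1 CPM (log2 fold change 3.33, standard error 0.29, adjusted p = 0.0057), and *Dusp10*, which acts on JNK and p38, went from 1.44, 2.02 and 1.44 CPM to 11.6, 12.8 and 9.52 CPM (log2 fold change 2.80, standard error 0.25, adjusted p = 0.0057). In both genes the lowest APAP liver stood several-fold above the highest vehicle liver. *Dusp1*, *Dusp5* and *Dusp14* were the others that rose, and 4 of the 5 were called without either of the 2 libraries. *Dusp8* had an adjusted p of 0.0664 with all 6 livers and 0.00839 without WT vehicle replicate 2.

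The integrated stress response list holds ATF4 and the genes it drives for amino acid uptake and synthesis. Of 25 tested, 9 were higher and 0 lower (median log2 fold change 1.32), and 16 did not overlap between the groups, as 24.9% of all genes tested did not. *Ddit3* (gene ID 13198, chr10:127290793-127296291 in GRCm38), which encodes the factor CHOP, had 5.7, 9.05 and 5.44 CPM with vehicle and 213, 212 and 285 CPM with APAP. It rose 35.1-fold (log2 fold change 5.14, standard error 0.30, adjusted p = 0.000954). *Psat1*, an enzyme of serine synthesis, went from 0.923, 0.632 and 0.869 CPM to 25.4, 12.4 and 26.8 CPM (log2 fold change 4.73, standard error 0.37, adjusted p = 0.00384). *Phgdh*, which opens the same route and was chosen after its values were seen, rose from 0, 0.079 and 0 CPM to 2.13, 1.11 and 1.15 CPM (adjusted p = 0.0311). *Mthfd2*, of the mitochondrial folate cycle, *Asns*, which makes asparagine, *Slc7a11*, the cystine carrier, and *Ppp1r15a*, which lets the phosphatase PP1 reverse the block on translation, rose too, of which *Asns* was chosen after its values were seen. *Atf4* itself had 54.5, 134 and 65.1 CPM with vehicle and 215, 116 and 203 CPM with APAP, and was not called (adjusted p = 0.2). Of the 9 called, 6 were called without WT APAP replicate 1, 6 without WT vehicle replicate 2 and 7 without both.

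Of 26 genes of the unfolded protein response, which restores folding in the endoplasmic reticulum (ER), 2 were higher, 0 were lower and the median log2 fold change was 0.18. They were *Hspa5*, the main ER chaperone (432, 476 and 323 CPM to 1220, 1150 and 1660 CPM, log2 fold change 1.71, adjusted p = 0.0229), and *Eif2ak3*, the ER kinase PERK (log2 fold change 1.77, adjusted p = 0.00933). Both were called without either of the 2 libraries and without both. *Xbp1*, whose RNA the ER sensor IRE1 splices, had 116, 549 and 137 CPM with vehicle and 192, 210 and 302 CPM with APAP (log2 fold change -0.19, adjusted p = 0.896). The vehicle value of 549 CPM belongs to replicate 2, and without it the log2 fold change was 0.89. Of 20 aminoacyl-tRNA synthetases, which load tRNAs and are ATF4 targets in part, 2 were higher (*Sars* and *Cars*) and 17 had a positive log2 fold change, with a median of 0.54.

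NRF2 targets supply glutathione, thioredoxin and NADPH. Of 27 tested, 10 were higher and 0 lower, and the list's median log2 fold change was 0.95. The groups did not overlap in 20 of the 27, as in 24.9% of all genes tested. *Srxn1* (gene ID 76650, chr2:152105524-152111376 in GRCm38), sulfiredoxin, which repairs overoxidized peroxiredoxins, had 26, 23.1 and 31.2 CPM with vehicle and 392, 436 and 579 CPM with APAP, a 17.5-fold rise (log2 fold change 4.13, standard error 0.25, adjusted p = 0.00102). *Gclc*, the catalytic subunit of the enzyme that limits glutathione synthesis, went from 148, 134 and 112 CPM to 1080, 1030 and 1240 CPM (log2 fold change 3.08, standard error 0.22, adjusted p = 0.00248). *Sqstm1*, the autophagy receptor p62, went from 340, 367 and 335 CPM to 1660, 1860 and 2090 CPM (log2 fold change 2.43, standard error 0.21, adjusted p = 0.0057). In these 3 genes the livers of a group lay close together. *Hmox1*, heme oxygenase, *Pgd*, of the pentose phosphate pathway, *Txnrd1*, thioredoxin reductase, *Gsr*, glutathione reductase, *Ugdh*, *Aox1* and *Slc7a11* completed the 10, which are given in full whatever the rule for named genes takes. *Slc7a11* had 0 counts in each vehicle liver and 1.39, 2.14 and 3.17 CPM with APAP, at least 39.6-fold higher against a floor of 3 counts per library (adjusted p = 0.011). *Nqo1*, often used as the marker of NRF2, had 4.16, 5.49 and 5.53 CPM with vehicle and 11.8, 8.53 and 10.5 CPM with APAP and was not called (log2 fold change 1.02, adjusted p = 0.0634). Of the 10 called, 8 were called without WT APAP replicate 1, 8 without WT vehicle replicate 2 and 10 without both.

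The transferases that use glutathione were tested as a list of their own. Of 21 glutathione S-transferases tested, 1 was higher, *Gsta1* (1.54, 2.25 and 0.755 CPM to 112, 31.4 and 47.3 CPM, adjusted p = 0.00953), and the median log2 fold change was 0.08. Reads of *Gsta1* may be shared with *Gm3776*, a predicted gene on chromosome 9 that rose by a log2 fold change of 6.08 and is called in every fit with 1 library left out. Of 20 genes tied to ferroptosis, the iron-dependent death by lipid peroxides, 2 were higher (*Slc7a11* and *Slc3a2*, the subunits of the cystine carrier) and 0 lower, with a median of 0.27 that came to 0.01 without WT APAP replicate 1. In this list 8 genes had an unadjusted p under 0.05, DESeq2 called 6 higher and 1 lower, and limma called 1 higher and 0 lower. *Gpx4*, which detoxifies lipid peroxides, had 163, 192 and 193 CPM with vehicle and 234, 156 and 176 CPM with APAP (log2 fold change 0.05, adjusted p = 0.932). *Alox12*, a lipoxygenase, had 0.16, 0.534 and 0.397 CPM with vehicle and 3.9, 1.31 and 1.13 CPM with APAP (log2 fold change 2.53, adjusted p = 0.097).

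**Figure D2:**
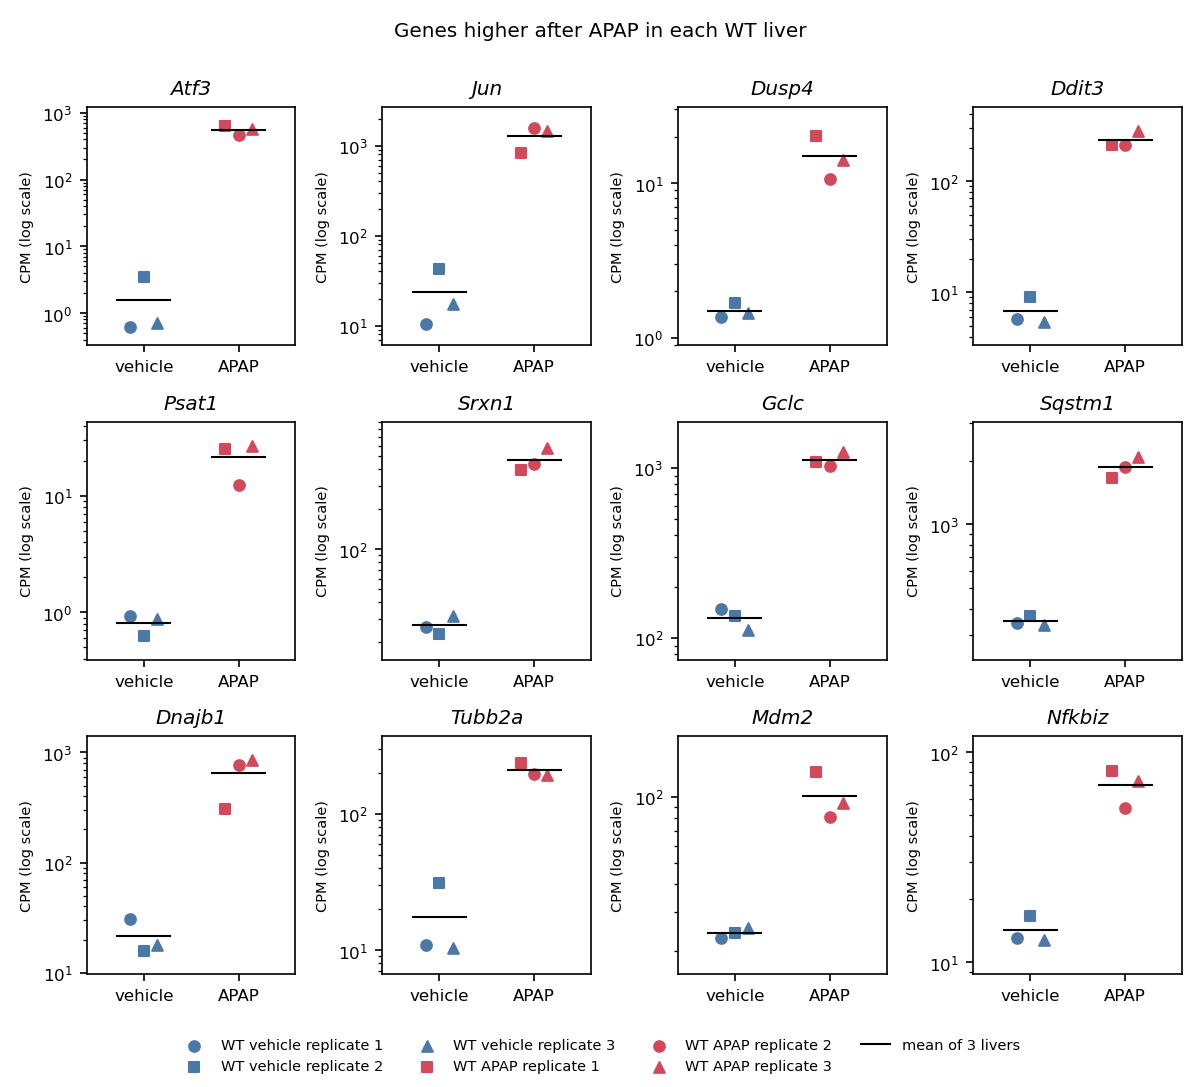
CPM on a log axis of 12 genes higher after APAP in each WT liver, with vehicle livers in blue, APAP livers in red and a bar at the mean of 3 livers. The groups do not overlap in any panel, and the *Srxn1*, *Gclc* and *Sqstm1* values of each group lie close together.

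The promoters of called genes were searched for short motifs of the factors above, in the window from 250 bases before to 50 bases after the start that RefSeq gives in the build GRCm38.p6. A window was found for 183 of the 255 higher genes, 45 of the 67 lower genes and 11634 of the 15693 genes tested, and the shares are a description with no test. The cAMP response element TGACGTCA was in 13 higher genes (7.10%), 0 lower genes and 3.03% of all genes with a window. The antioxidant response element (TGAC and GCA with any 3 bases between them) was in 6.01% of the higher genes, 4.44% of the lower genes and 2.85% of all. The C/EBP-ATF composite TGATGNAA was in 4.92% of the higher genes, 0 lower genes and 2.54% of all, and the TATA box TATAAA in 16.9%, 13.3% and 8.11%. The heat shock pair GAANNTTC (5.46% of the higher genes, 8.89% of the lower genes and 5.67% of all), the metal response element TGCNCNC (56.8%, 57.8% and 58.6%), the E-box CACGTG (12.0%, 13.3% and 9.86%) and the STAT motif TTCCNGGAA (1.09%, 0 and 1.25%) completed the search, in which both strands were read and no motif holds another. The promoters of 4 higher genes are printed from RefSeq 5′ to 3′ on the strand of the gene, with matches to TGACGTCA, TATAAA or TGATGNAA in capitals, since they show where these letters lie in a kinase phosphatase, a stress response phosphatase subunit, a growth factor and the cystine carrier. They are *Dusp1* (chr17:26508423-26508722, minus strand), *Ppp1r15a* (chr7:45526219-45526518, minus strand), *Areg* (chr5:91139349-91139648, plus strand) and *Slc7a11* (chr3:50443564-50443863, minus strand).
Dusp1: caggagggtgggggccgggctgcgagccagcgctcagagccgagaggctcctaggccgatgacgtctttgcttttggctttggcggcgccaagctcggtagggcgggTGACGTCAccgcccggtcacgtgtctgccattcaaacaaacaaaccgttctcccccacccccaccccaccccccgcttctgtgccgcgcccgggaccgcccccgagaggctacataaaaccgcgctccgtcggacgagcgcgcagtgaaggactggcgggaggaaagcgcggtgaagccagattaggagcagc
Ppp1r15a: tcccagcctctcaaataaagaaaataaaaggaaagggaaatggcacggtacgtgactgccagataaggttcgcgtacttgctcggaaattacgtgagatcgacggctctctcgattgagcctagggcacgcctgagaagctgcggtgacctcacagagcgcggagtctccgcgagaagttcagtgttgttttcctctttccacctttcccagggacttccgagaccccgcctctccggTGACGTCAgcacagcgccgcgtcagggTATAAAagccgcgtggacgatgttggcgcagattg
Areg: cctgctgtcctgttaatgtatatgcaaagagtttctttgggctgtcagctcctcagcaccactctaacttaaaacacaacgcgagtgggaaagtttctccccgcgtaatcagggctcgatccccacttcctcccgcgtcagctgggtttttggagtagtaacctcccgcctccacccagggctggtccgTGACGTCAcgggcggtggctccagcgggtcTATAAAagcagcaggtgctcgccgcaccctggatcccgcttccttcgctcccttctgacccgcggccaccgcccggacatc
Slc7a11: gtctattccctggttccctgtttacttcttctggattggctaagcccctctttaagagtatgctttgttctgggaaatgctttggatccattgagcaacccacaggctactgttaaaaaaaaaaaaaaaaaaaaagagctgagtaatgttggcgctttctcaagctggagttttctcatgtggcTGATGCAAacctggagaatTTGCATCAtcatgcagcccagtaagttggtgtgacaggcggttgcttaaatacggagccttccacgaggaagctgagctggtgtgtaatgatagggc
The response element begins 143 bases before the start in *Dusp1*, 12 before it in *Ppp1r15a* and 61 before it in *Areg*, where TATAAA follows at 31 bases before the start. In *Ppp1r15a* TATAAA lies 15 bases after the start. In *Slc7a11* a pair of composites stands 66 and 47 bases before the start, the first on the strand of the gene and the other on the opposite strand.

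Cytosolic heat shock proteins refold or clear damaged proteins. Of 21 tested, 3 were higher and 0 lower, and the list's median log2 fold change was 1.10. In this list 11 genes had an unadjusted p under 0.05, DESeq2 called 11 higher and 0 lower, and limma called 1 higher and 0 lower. *Dnajb1*, the HSP40 partner of HSP70, went from 30.8, 15.8 and 17.8 CPM to 304, 769 and 862 CPM (log2 fold change 4.91, standard error 0.50, adjusted p = 0.007), and *Hsp90aa1* and the mitochondrial co-chaperone *Hspe1* rose as well. Both of the latter lost their calls without WT vehicle replicate 2 (adjusted p = 0.0949 and 0.0756). The inducible HSP70 genes had far wider groups: *Hspa1a* had 15.8, 0.771 and 1.13 CPM with vehicle and 71.7, 1490 and 313 CPM with APAP and was not called (log2 fold change 6.73, standard error 1.66, adjusted p = 0.0891). Its twin *Hspa1b*, which can share reads with it, was similar (adjusted p = 0.115). WT APAP replicate 1 held the lowest APAP value of *Dnajb1*, *Hsp90aa1*, *Hspa1a* and *Hspa1b*, and without it *Bag3* and *Dnaja1*, co-chaperones of HSP70 chosen after their values were seen, were called (adjusted p = 0.0258 and 0.0191, against 0.0728 and 0.0745 with all 6 livers). Of 35 proteasome subunits, 34 had a positive log2 fold change, with a median of 0.35, but 0 were called (10 at an unadjusted p under 0.05, 3 by DESeq2 and 0 by limma). Of 22 genes of selective autophagy, which carries damaged parts to the lysosome, *Sqstm1* was the 1 called, and the median was -0.10.

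Of 21 targets of p53, the factor of the DNA damage response, 4 were higher and 0 lower (median log2 fold change 0.67). *Mdm2*, the ubiquitin ligase of p53, had 22.8, 24 and 25.3 CPM with vehicle and 129, 80.9 and 93.3 CPM with APAP (log2 fold change 2.07, standard error 0.21, adjusted p = 0.00725). *Plk2*, *Trp53inp1* and *Pmaip1*, which encodes NOXA, were the others that rose. Of the 4, 3 were called without WT APAP replicate 1 and 2 without WT vehicle replicate 2. *Cdkn1a*, the cell cycle inhibitor p21, had 5.26, 27.4 and 5.12 CPM with vehicle and 154, 60.1 and 207 CPM with APAP. The groups did not overlap, but the adjusted p was 0.0722, and it was 0.0252 without WT vehicle replicate 2. Of 22 apoptosis regulators 0 were called, with 7 at an unadjusted p under 0.05, 3 called by DESeq2 and 0 by limma.

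Tubulins are the subunits of microtubules. Of 11 tested, 9 had a positive log2 fold change and 6 were higher and 0 lower, and the list's median log2 fold change was 1.40. *Tubb2a* went from 11, 31.1 and 10.4 CPM to 237, 197 and 191 CPM (log2 fold change 3.57, standard error 0.46, adjusted p = 0.0137), and *Tubb4b* from 41, 42.4 and 49.9 CPM to 95.9, 127 and 139 CPM (log2 fold change 1.44, standard error 0.20, adjusted p = 0.0169). *Tubb2b*, *Tubb6*, *Tuba1b* and *Tuba1c* were the others, and since tubulin genes are close copies, reads may have been split among them. Of the 6, 5 were called without WT APAP replicate 1, 4 without WT vehicle replicate 2 and 6 without both.

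Actin genes and targets of the factor SRF were highest in WT APAP replicate 1. Of 24 tested, 2 were higher, *Ccn1*, a matrix protein (1.26, 1.21 and 2.21 CPM to 276, 35.6 and 102 CPM, adjusted p = 0.0125), and *Vcl*, vinculin (24.5, 23.8 and 28.3 CPM to 74.7, 57.5 and 63.2 CPM, adjusted p = 0.0136). The median log2 fold change was 1.50 with all 6 livers and 0.75 without WT APAP replicate 1. In this list 18 genes had an unadjusted p under 0.05, DESeq2 called 11 higher and 0 lower, and limma called 2 higher and 0 lower. *Actb*, which encodes beta-actin, had 107, 155 and 130 CPM with vehicle and 1610, 211 and 578 CPM with APAP. It was not called (log2 fold change 2.61, adjusted p = 0.0956), and the APAP livers differed more among themselves than replicate 2 did from the vehicle livers. *Rock2*, a kinase that acts on the actin skeleton, went from 20.6, 21.1 and 21.5 CPM to 59.5, 47.8 and 48.6 CPM (log2 fold change 1.30, standard error 0.16, adjusted p = 0.0114), and *Mylk*, myosin light chain kinase, fell (log2 fold change -1.23, adjusted p = 0.0345, and over 0.05 without either of the 2 libraries). *Rock1* had 22, 23.4 and 22.3 CPM with vehicle and 26, 28.6 and 28.8 CPM with APAP (log2 fold change 0.30, adjusted p = 0.32). Of the G protein alpha subunits, *Gna12*, *Gna13*, *Gnai2*, *Gnaq* and *Gnas* had log2 fold changes between -0.31 and 0.24, and none of the 5 was called (adjusted p from 0.462 to 0.98). Before scaling, *Gna12* had 3550, 1659 and 3172 counts with vehicle and 1193, 4373 and 3178 counts with APAP. The lowest count of each group was thus in WT vehicle replicate 2 and WT APAP replicate 1.

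Among 15 secreted stress factors, 3 were higher and 0 lower, and the list's median log2 fold change was 1.52, or 2.35 without WT vehicle replicate 2. *Areg*, a ligand of the epidermal growth factor receptor, had 0 counts in each vehicle liver and 3, 2.1 and 1.77 CPM with APAP, at least 40.6-fold higher against a floor of 3 counts per library (adjusted p = 0.0082). *Ereg*, of the same ligand family, went from 0.107, 0.079 and 0.113 CPM to 4.86, 1.94 and 1.52 CPM (adjusted p = 0.0114). *Gdf15*, a cytokine made by stressed cells, rose from 1.39, 3.64 and 1.44 CPM to 253, 19.6 and 73.7 CPM (adjusted p = 0.0347, and 0.0614 without WT vehicle replicate 2), with a wide spread among the APAP livers. *Btc* and *Nrg1*, ligands of the same receptor family that were not on the list and were chosen after their values were seen, rose by log2 fold changes of 4.06 and 4.51 and were called in every fit with 1 library left out.

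Among inflammatory genes, some had their highest or near-highest value in WT vehicle replicate 2. Of 18 chemokines 2 were higher, *Cxcl10* (0.852, 1.15 and 0.51 CPM to 31.1, 6.62 and 29.7 CPM, adjusted p = 0.0162) and *Ccl7*, which had 0 counts with vehicle and was at least 9.38-fold higher (0.646, 0.579 and 0.362 CPM, adjusted p = 0.0262, and 0.0649 without WT APAP replicate 1). *Cxcl1*, a neutrophil attractant, had 3.04, 253 and 2.27 CPM with vehicle and 52.2, 24.2 and 81.4 CPM with APAP. Its log2 fold change was -0.71 with all 6 livers (adjusted p = 0.841) and 4.30 without WT vehicle replicate 2 (adjusted p = 0.0303), where 5 chemokines were higher. *Ccl2*, a monocyte attractant, went from an adjusted p of 0.124 to 0.04. *Nfkbiz*, a regulator induced by NF-kB, was the 1 gene called of 16 NF-kB feedback genes (13, 16.6 and 12.8 CPM to 81.4, 54.4 and 72.9 CPM, log2 fold change 2.30, adjusted p = 0.00659), and *Tnfrsf12a*, the receptor of the cytokine TWEAK, the 1 gene of 12 cytokine and inflammasome genes (3.52, 5.57 and 3.87 CPM to 133, 51.5 and 77.4 CPM, adjusted p = 0.00659). *Il1b* had 0.124, 0.494 and 0.85 CPM with vehicle and 12.8, 3.33 and 0.588 CPM with APAP (adjusted p = 0.152), and *Tnf* and *Il6* had too few reads to be tested.

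The acute phase plasma proteins, which hepatocytes release in response to the cytokine IL-6, changed sign with that library. Of 20 tested 0 were called (1 at an unadjusted p under 0.05, 0 by DESeq2 and 0 by limma), and the median log2 fold change was -0.52 with all 6 livers, 1.19 without WT vehicle replicate 2 and -0.48 without WT APAP replicate 1. *Saa1* had 6.43, 4510 and 81.9 CPM with vehicle and 45, 94.9 and 661 CPM with APAP. The other vehicle livers differed from each other as well, and without replicate 2 the log2 fold change of *Saa1* went from -2.52 to 2.59. Of 15 genes of the IL-6 family and STAT3, 0 were called (2 at an unadjusted p under 0.05, 1 by DESeq2 and 0 by limma), with a median of -0.14 that became 0.88 without WT vehicle replicate 2. Of 10 metallothionein and zinc transport genes 0 were called (1 at an unadjusted p under 0.05, 1 by DESeq2 and 0 by limma). *Mt2*, which binds zinc, had 84.6, 2000 and 98.8 CPM with vehicle and 2400, 561 and 1540 CPM with APAP (log2 fold change 1.04, adjusted p = 0.677), and its log2 fold change was 4.03 without that library (adjusted p = 0.0436). Of 25 type I interferon genes and 18 interferon-induced GTPases 0 were called (3 of each at an unadjusted p under 0.05, 3 and 1 by DESeq2, 0 by limma).

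**Figure D3:**
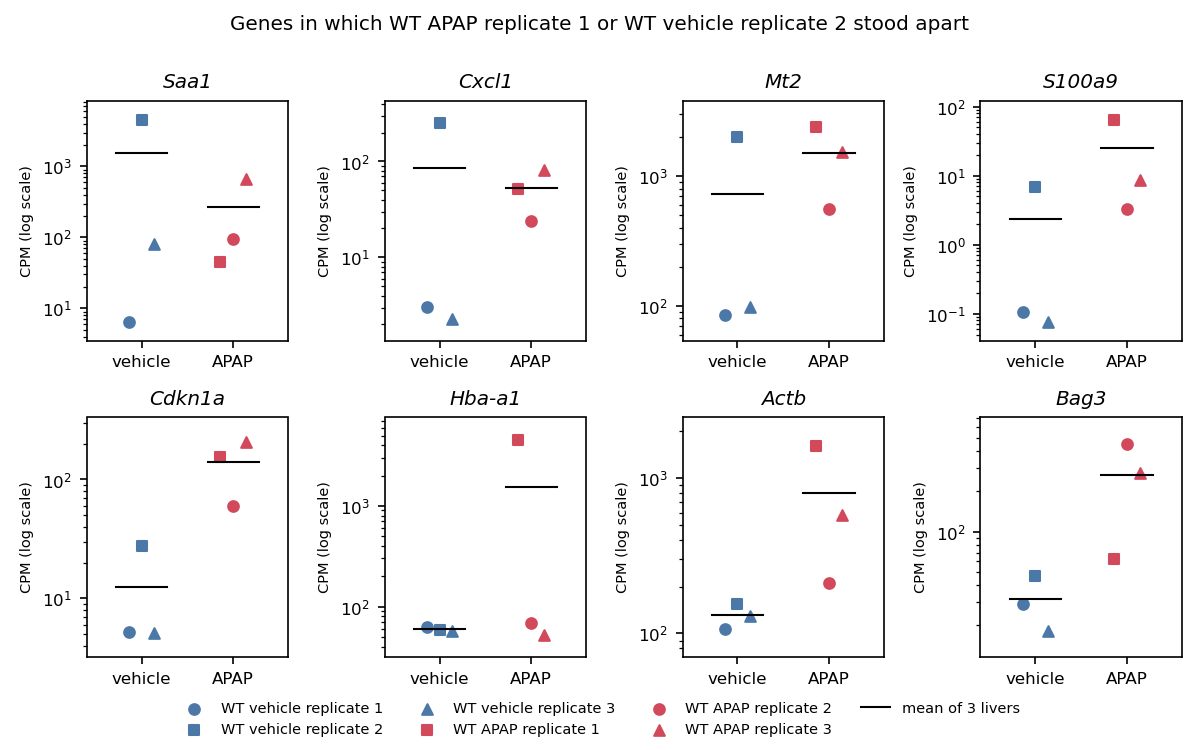
CPM on a log axis of 8 genes in each WT liver, with vehicle livers in blue, APAP livers in red, blue squares for WT vehicle replicate 2, red squares for WT APAP replicate 1 and a bar at the mean of 3 livers. WT vehicle replicate 2 is the highest vehicle liver for *Saa1*, *Cxcl1*, *Mt2*, *S100a9* and *Cdkn1a*, and WT APAP replicate 1 is the highest APAP liver for *Hba-a1*, *S100a9* and *Actb* and the lowest for *Bag3*.

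Genes of drug metabolism were mostly lower without passing edgeR's test. Of 33 drug-metabolizing cytochrome P450 genes, 24 had a log2 fold change below 0, the median was -0.26 and 1 was lower, *Cyp2c38* (31.5, 28.7 and 32.5 CPM to 6.94, 7.41 and 15 CPM, log2 fold change -1.66, adjusted p = 0.0448), which has close copies in its gene cluster. In this list 9 genes had an unadjusted p under 0.05, DESeq2 called 0 higher and 6 lower, and limma called 0. *Cyp2e1*, the main enzyme of APAP activation, had 7790, 8150 and 7860 CPM with vehicle and 3390, 3110 and 4020 CPM with APAP. The groups were narrow and did not overlap, and the adjusted p was 0.0502, just past the threshold, with log2 fold changes between -1.18 and -1.13 in the fits with and without the 2 libraries. Of 26 genes of glucuronidation and sulfation, 3 rose and 2 fell (4 and 3 by DESeq2, 1 and 2 by limma). *Ugdh*, which makes the UDP-glucuronic acid for the coupling, *Ugt2b35* (85.6, 88.4 and 94 CPM to 217, 188 and 161 CPM, adjusted p = 0.0319) and *Ugt2b37* rose, though the last pair belong to a cluster of similar genes. *Sult1d1*, a sulfotransferase (105, 119 and 93 CPM to 30, 41.6 and 31.2 CPM, log2 fold change -1.63, standard error 0.20, adjusted p = 0.0114), and *Papss2*, which makes the active sulfate donor (116, 103 and 141 CPM to 55.4, 33.9 and 36.4 CPM, log2 fold change -1.52, adjusted p = 0.0273), fell. All 5 were called without WT APAP replicate 1 and 3 of them without WT vehicle replicate 2.

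Amino acid and bile acid enzymes leaned down. Of 26 urea cycle and amino acid genes 20 had a log2 fold change below 0, the median was -0.49 and 1 was lower, *Oat*, ornithine aminotransferase (674, 665 and 719 CPM to 195, 304 and 249 CPM, log2 fold change -1.46, standard error 0.23, adjusted p = 0.0256). In this list 11 genes had an unadjusted p under 0.05, DESeq2 called 1 higher and 8 lower, and limma called 0. *Glul* (gene ID 14645, chr1:153899929-153909723 in GRCm38), glutamine synthetase of the hepatocytes next to the central vein, was not on that list and fell 4.49-fold, from 468, 662 and 710 CPM to 61, 173 and 175 CPM (log2 fold change -2.17, standard error 0.42, adjusted p = 0.0492), a call that was lost without WT vehicle replicate 2 (adjusted p = 0.0824) and kept without WT APAP replicate 1 (adjusted p = 0.0278). Of 24 bile acid genes, 1 was lower, *Akr1d1*, a reductase of bile acid synthesis, with a median of -0.37 (6 at an unadjusted p under 0.05, 5 lower by DESeq2 and 0 by limma). *Hsd3b3* and *Hsd3b2*, steroid dehydrogenases (log2 fold changes -1.60 and -1.82), *Afmid*, an enzyme of tryptophan breakdown (224, 216 and 185 CPM to 66.1, 72.3 and 47.5 CPM, log2 fold change -1.75, adjusted p = 0.0114), *Ido2*, of the same breakdown, *Fgf1*, a growth factor, and *Nlrp6*, a sensor of the NLR family, also fell.

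Of 22 hepatocyte transcription factors 21 had a log2 fold change below 0, the median was -0.35 and 0 were called (3 at an unadjusted p under 0.05, 3 lower by DESeq2 and 0 by limma). The score of this list, the median over its members of the log2 CPM minus the gene's mean in the vehicle livers, was -0.95, -0.03 and -0.33 in the APAP livers, so WT APAP replicate 2 hardly differed from vehicle. *Hnf4a*, the master factor of hepatocytes, had 668, 1090 and 595 CPM with vehicle and 561, 631 and 836 CPM with APAP (adjusted p = 0.742). *Nr1i3*, the receptor CAR, had 397, 245 and 330 CPM with vehicle and 114, 174 and 136 CPM with APAP (log2 fold change -1.19, adjusted p = 0.0634). Fatty acid oxidation (30 tested, 0 called), growth hormone signalling (16 tested, 0 called), fasting and gluconeogenesis (21 tested, 0 called) and cholesterol synthesis (26 tested, 0 called) had medians between -0.34 and 0.25, with 7, 6, 5 and 6 members at an unadjusted p under 0.05, 4, 3, 4 and 5 called by DESeq2 and 0 by limma. In fatty acid synthesis 1 of 22 genes was higher, *Elovl3*, an elongase of long fatty acids (43.7, 27.1 and 46.9 CPM to 203, 232 and 248 CPM, log2 fold change 2.54, standard error 0.25, adjusted p = 0.00659). Of 19 clock genes *Nr1d1*, which encodes REV-ERB alpha, rose (log2 fold change 2.64, adjusted p = 0.0224) and *Usp2* fell, a call lost without WT APAP replicate 1 (adjusted p = 0.087). *Dbp*, another clock output, had 103, 20.1 and 81.4 CPM with vehicle and 19.1, 33.9 and 16.2 CPM with APAP, so WT vehicle replicate 2 lay among the APAP livers (adjusted p = 0.2, and 0.0487 without it).

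**Figure D4:**
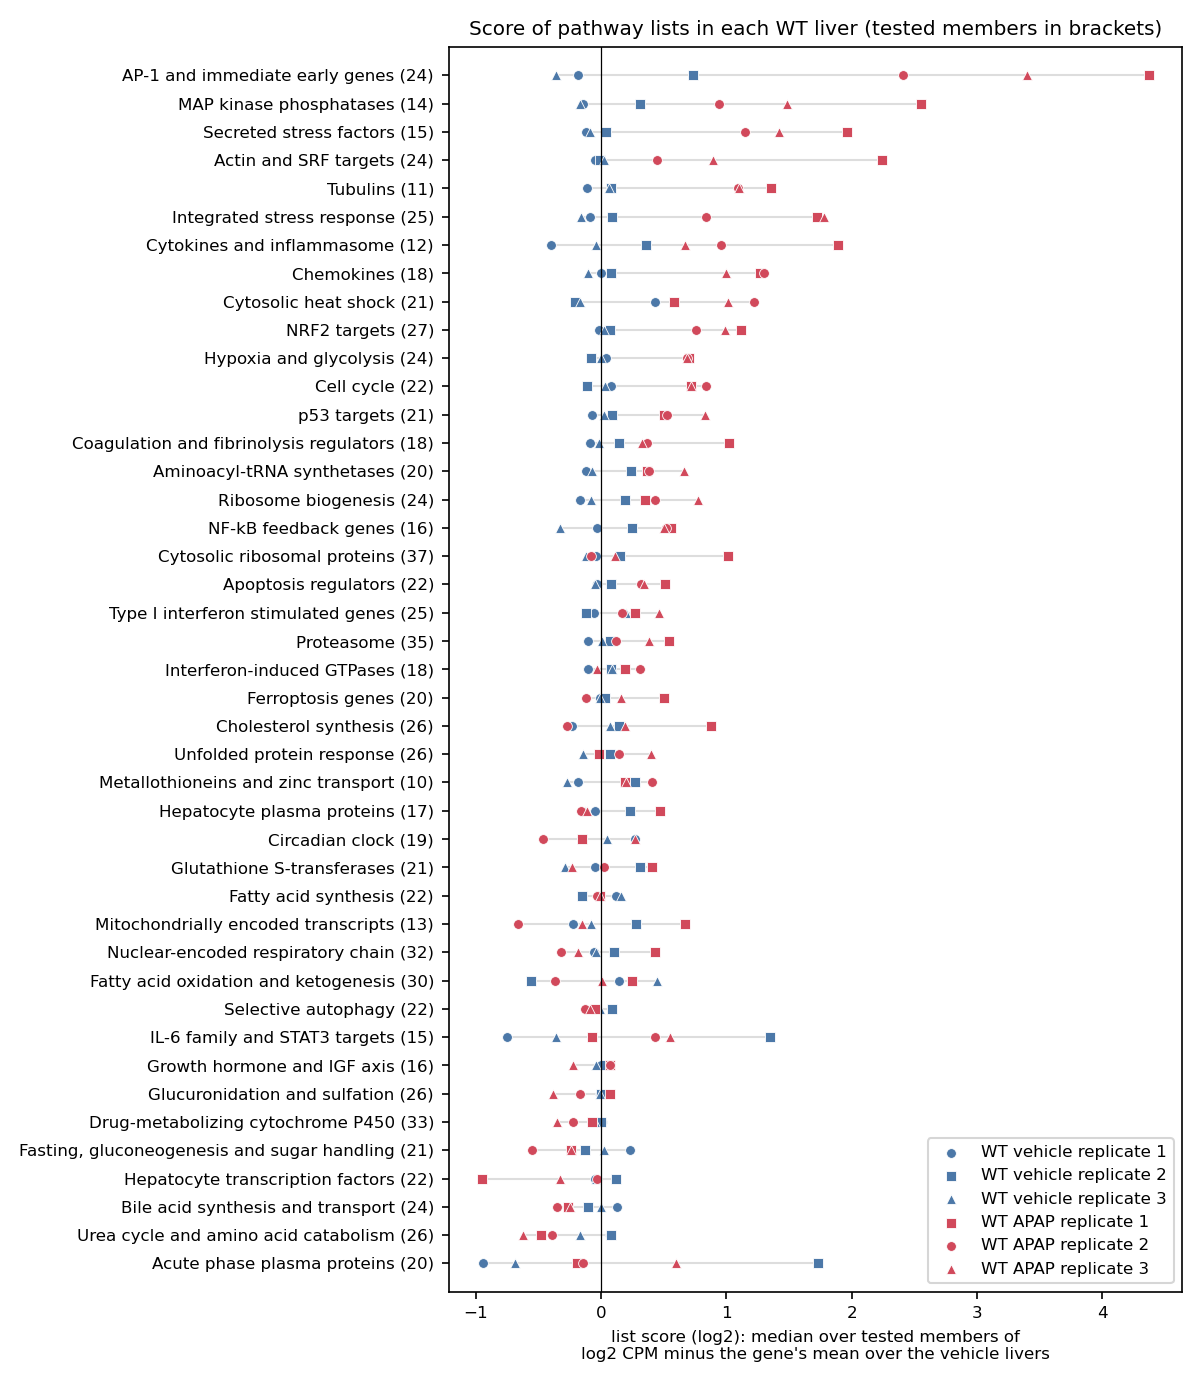
Score of each pathway list shown in each WT liver, as the median over its tested members of log2 CPM minus the gene's mean in the vehicle livers, with the number of tested members in brackets and lists ordered by their median log2 fold change. The AP-1, MAP kinase phosphatase and NRF2 scores separate the groups, the cytosolic ribosomal proteins are apart only in WT APAP replicate 1, and the acute phase proteins are highest in WT vehicle replicate 2.

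Some lists of growth and energy genes moved with WT APAP replicate 1, while ribosome biogenesis and cell cycle genes kept medians above 0 without it. All 24 ribosome biogenesis genes had a positive log2 fold change (median 0.44, and 0.61 without WT APAP replicate 1). Of these, 2 were higher, *Nop56* and *Gnl3*, nucleolar proteins. *Gnl3* lost its call without WT APAP replicate 1 (adjusted p = 0.0927) and *Nop56* without WT vehicle replicate 2 (adjusted p = 0.0514). All 37 cytosolic ribosomal protein genes had a positive log2 fold change, but 0 were called (0 at an unadjusted p under 0.05, 0 by DESeq2 and 0 by limma). Their scores were 1.01, -0.08 and 0.11 in the APAP livers, and their median of 0.41 became 0.01 without replicate 1. The 32 nuclear-encoded genes of the respiratory chain had a median of 0.00 and the 17 hepatocyte plasma proteins one of 0.10 (0 called in either list, 0 at an unadjusted p under 0.05, 0 by DESeq2 and 0 by limma). Without WT APAP replicate 1 these medians were -0.27 and -0.09. The 13 mitochondrially encoded transcripts had scores of 0.67, -0.66 and -0.15, and their median went from 0.02 to -0.40 (0 called, 0 at an unadjusted p under 0.05, 0 by DESeq2 and 0 by limma). Of 22 cell cycle genes 20 had a positive log2 fold change, and the median was 0.83, or 0.88 without WT APAP replicate 1. The groups did not overlap in 11 of the 22, as in 24.9% of all genes tested. The 1 gene called was lower, *Tk1*, thymidine kinase (adjusted p = 0.0337, and 0.0706 without WT APAP replicate 1), whereas DESeq2 called 4 higher and 2 lower. *Tk1* (chr11:117815519-117826087 in GRCm38) overlaps *Afmid* (chr11:117825503-117839908), which fell as well. The strand setting of the counting is not known, so reads may be shared between them. *Ccnd1*, cyclin D1, had 4.12, 4.25 and 8.29 CPM with vehicle and 8.95, 44.1 and 31.8 CPM with APAP (adjusted p = 0.0856, and 0.0263 without WT APAP replicate 1). Of 24 hypoxia and glycolysis genes *Pfkp* rose (a call lost without either of the 2 libraries), *Pdk1* fell and the median was 0.85.

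Markers of cell types were compared as sums. The 10 hepatocyte markers summed to 64400 to 87600 CPM with vehicle and 80800 to 134000 CPM with APAP, and none of them was at 0 in all 6 livers. *Alb* alone had 47700, 59100 and 40700 CPM with vehicle and 96700, 67700 and 55500 CPM with APAP. Gene by gene, 4 of the 10 had a positive and 6 a negative log2 fold change, with a median of -0.15 and 0 called. The 12 neutrophil markers summed to 2.1, 20.6 and 1.25 CPM with vehicle and 140, 14.4 and 24.4 CPM with APAP, with *Camp* at 0 counts in all 6 livers. WT vehicle replicate 2 lay between the APAP livers, and of 9 neutrophil markers tested 0 were called (4 at an unadjusted p under 0.05, 0 by DESeq2 and 0 by limma). Their median log2 fold change was 2.87, 1.33 without WT APAP replicate 1 and 6.04 without WT vehicle replicate 2. *S100a9* had 0.107, 6.94 and 0.0755 CPM with vehicle and 64.3, 3.23 and 8.74 CPM with APAP. The erythroid sum was 16600 CPM in WT APAP replicate 1 and 317 to 357 CPM in the other APAP livers, and the median log2 fold change of its 6 tested genes went from 4.42 to 0.07 without that library. The sums of Kupffer cells (141 to 230 CPM and 126 to 307 CPM), monocytes (1100 to 2640 CPM and 853 to 1610 CPM), lymphocytes (4.37 to 9.84 CPM and 5.64 to 21.2 CPM) and sinusoidal endothelium (274 to 338 CPM and 278 to 443 CPM) overlapped between vehicle and APAP livers. Those of stellate cells (269 to 307 CPM and 312 to 590 CPM), cholangiocytes (11.7 to 19.5 CPM and 26.7 to 72.6 CPM) and platelets (12.4 to 17 CPM and 19.8 to 47.5 CPM) did not, with the highest value in WT APAP replicate 1 each time. Gene by gene, the groups did not overlap in 3 of 13 stellate, 2 of 6 cholangiocyte and 2 of 5 platelet markers tested. The share over all genes tested was 24.9%. Of the first 2 markers of each of these 3 lists, *Lrat*, *Krt19*, *Krt7* and *Pf4* overlapped, and *Dcn* and *Ppbp* did not. Of these lists *Lyve1*, an endothelial marker (11.1, 12.3 and 8.48 CPM to 23.9, 22.3 and 24.5 CPM, adjusted p = 0.0287), and *Sox9*, a cholangiocyte marker (1.56, 5.81 and 2.63 CPM to 36.3, 17.3 and 25.1 CPM, adjusted p = 0.0337), were called. Both lost their calls without WT APAP replicate 1 (adjusted p = 0.0513 and 0.0744). The part of other cells in the results above was not tested.

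Most called genes lay outside every list. Of the 255 higher genes 181, and of the 67 lower genes 58, belonged to none of the 54 lists, and those named here were chosen after their values were seen where the rule for named genes did not take them. *Ifrd1*, a transcriptional coregulator, had 15.8, 13.5 and 15.2 CPM with vehicle and 342, 304 and 396 CPM with APAP, with tight groups (log2 fold change 4.55, standard error 0.21, adjusted p = 0.000638, at most 0.0132 with 1 library left out). *Chka*, choline kinase, went from 17.6, 34.7 and 14.4 CPM to 635, 333 and 483 CPM (log2 fold change 4.44, standard error 0.44, adjusted p = 0.00659). *Gadd45b*, a stress signalling protein, *Zfand5*, which activates the proteasome, *Csrnp1* and *Tsc22d2*, both nuclear proteins, rose by log2 fold changes of 3.01, 2.81, 2.99 and 2.62. These 6 genes were called in every fit with 1 library left out. *Brd2*, a chromatin reader, rose by a log2 fold change of 2.57 (adjusted p = 0.0173).

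The called genes were then looked up in the 6 livers labelled KO, which share no library with the WT comparison. There APAP against vehicle gave 2034 higher genes (13% of 15665 tested) and 1504 lower genes (9.60%). Of 249 WT higher genes tested in both, 233 (93.6%) were higher there as well, and of 65 WT lower genes 56 (86.2%) were lower, with 0 called in the opposite direction. The same direction was found for 247 of 249 and 64 of 65. *Srxn1* rose by 4.58, *Ddit3* by 4.76 and *Atf3* by 10.09 on the log2 scale, and among the exceptions *Pmaip1* (log2 fold change 0.47, adjusted p = 0.437) and *Cyp2c38* (-0.80, adjusted p = 0.301) were not called. A difference between the labels in the response to APAP was tested as an interaction over all 12 livers with edgeR's quasi-likelihood test. Of 16509 genes 0 passed (848 at an unadjusted p under 0.05, smallest adjusted p = 0.847), which does not show that the responses were equal.

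**Figure D5:**
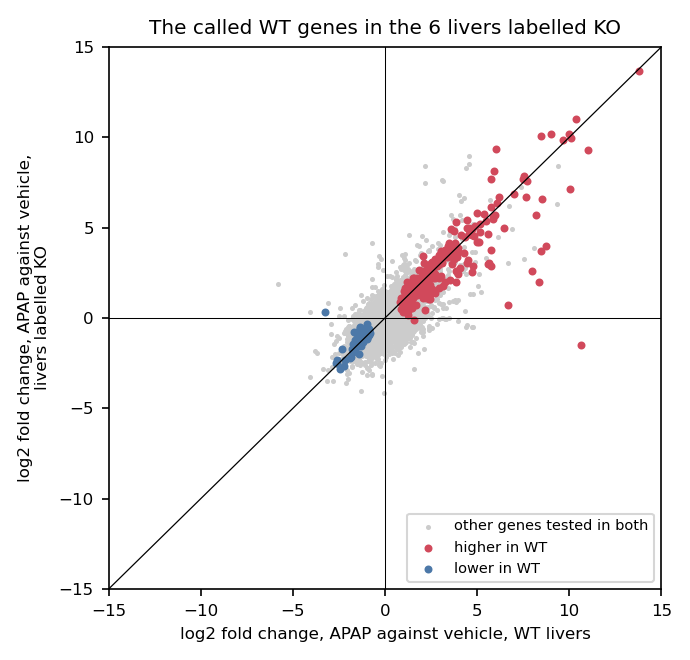
Log2 fold change of APAP against vehicle in the WT livers (x axis) and in the livers labelled KO (y axis) for genes tested in both, with genes higher in WT in red, genes lower in WT in blue, other genes in grey and the diagonal as a line. Nearly all red points lie above 0 and nearly all blue points below 0 on the y axis.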

How the data were processed

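RNA of 12 separate livers was sequenced from poly-A selected, strand-specific TruSeq libraries, and 6 of them (3 WT APAP and 3 WT vehicle) are described here. The submitters' processing notes name FastQC 0.11.7, Trimmomatic 0.38, HISAT2 2.1.0, Bowtie2 2.3.4.1 and StringTie 2.1.3b and the build mm10, and the setting for strand in counting is not given in the sources used here. The authors deposited whole-number read counts per gene, which were tested. The authors also deposited TPM values, used in an alternative and in means per group, and FPKM values, not used here.

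Counts were filtered with filterByExpr, scaled by TMM and fitted with edgeR 4.0.16 (R 4.3.3) as a quasi-likelihood model of treatment in the 6 WT livers. The p-values were adjusted by Benjamini-Hochberg across every gene in the fit, and those under 0.05 were called. The scripts were tested on simulated data. The members and the 54 gene lists were chosen with earlier results of these data known. Genes were named by rule: the first 2 of each list, up to 5 called per list by p (or the 2 lowest p where none was called), the 20 largest changes and the 10 most abundant called genes in each direction, and genes the study names. Alternatives were DESeq2 1.42.0 (its Wald test and its size factors), limma 3.58.1 on quantile-normalized log2(TPM + 1) and log2(TPM + 0.1), other filters, all 12 livers in one fit, another quasi-likelihood method, a replicate block and leaving out libraries. Each liver is a separate animal's sample as far as the labels say, and no pair of libraries agreed within sampling noise. Some genes and a list are not reported here.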

Additional observations from a re-analysis of the deposited data

How the results depend on the processing

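The counts of 255 higher and 67 lower genes depended on the method. DESeq2's Wald test gave 877 and 536, all 12 livers in one fit 968 and 555, and 2 livers against 2, without WT APAP replicate 1 and WT vehicle replicate 2, 435 and 196. Limma on log2(TPM + 1) gave 162 higher genes. With 1 library left out the counts ran from 41 (without WT vehicle replicate 3) to 316 higher genes and from 0 to 126 lower genes (both upper ends without WT APAP replicate 2). *Cxcl1* changed sign: its log2 fold change was -0.71 with all 6 livers, 4.31 in 2 livers against 2, and between -1.31 and 4.30 with 1 library left out. The cause of these differences was not tested.

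With a replicate block, 61 higher genes and 1 lower gene were called, of which 58 and 1 are among those called without it. Same-numbered livers did not deviate together (correlations of -0.129, -0.219 and 0.0143), so the numbers were not taken as pairs. Of the 233 named genes tested with all 6 livers, 204 kept their direction and call without WT APAP replicate 1 and 201 without WT vehicle replicate 2, whereas 153 did without WT vehicle replicate 3. The median log2 fold change of all genes was 0.03, and 0.10 with no filter. The vehicle libraries were shallower (51555281 to 53487025 counts) than the APAP libraries (62593040 to 69566079).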

Other observations

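A pair of RNA classes on no list was gathered after values were seen, so they are described with no test. Of 36 histone cluster genes tested, whose mRNAs mostly end without a poly-A tail, 10 were higher and 0 lower after APAP, and 35 had a positive log2 fold change (median 1.65). Their summed level was 122, 106 and 107 CPM in the vehicle livers and 297, 209 and 180 CPM in the APAP livers, so every APAP liver lay above every vehicle liver. The higher genes numbered 6 without WT APAP replicate 1 and 3 without WT vehicle replicate 2. In the livers labelled KO 15 of 35 were higher.

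Of 9 small structured noncoding RNAs tested, such as *Rn7sk*, the RNA that holds the elongation factor P-TEFb in check, 7 were higher, 0 were lower and the median log2 fold change was 4.90. The higher ones numbered 5 without WT APAP replicate 1 and 4 without WT vehicle replicate 2. They summed to 3.32, 2.71 and 3.49 CPM with vehicle and 44.3, 47.7 and 34 CPM with APAP, and in the livers labelled KO 9 of 9 were higher. *Rn7sk* rose by 5.88 on the log2 scale (standard error 0.30, adjusted p = 0.000653). The libraries were poly-A selected, and the part of the selection in these values was not tested.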
